A study of Mus musculus with 12 samples.

Results

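In mouse 2-cell embryos cultured with the tankyrase inhibitor IWR1-endo, 998 of the 2345 regions listed by ATAC-seq as more open than in solvent controls had the same width of exactly 1000 bases, the smallest in the list. ATAC-seq maps open chromatin by the insertion of a transposase. These 998 regions, 42.6% of the IWR1-high list and called minimum-width IWR1-high regions here, were selected by their width and by being in that list, so neither their width nor their greater openness is a result. The narrowest regions that the selection left out were 1034, 1037 and 1037 bases wide, and 181 of those left out were at most 1100 bases wide. The other 1347 IWR1-high regions, called wide here, had a median width of 1370 bases. The matching list of regions less open under IWR1 held 886 regions of 1000 bases among 1400, and the lists together held 3745 regions.

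Embryos came from NSA(CF-1) females mated with B6SJLF1/J males, were recovered 16 to 20 h after human chorionic gonadotropin was injected, and were cultured in KSOM medium at 5% oxygen until 46 h. The IWR1 group was cultured in 50 µM IWR1-endo and the control group in its vehicle, DMSO. ATAC-seq libraries were made from 2 independent collections of 100 pooled embryos per group, and RNA-seq libraries from 4 independent collections of 10 pooled embryos per group. The region lists give coordinates with no value per library, so they show nothing of the spread between the ATAC-seq collections, and all counts of regions are descriptions. RNA-seq has values for each library and was tested across all genes. Its values were not used by the rule that selected the regions, although that rule was written with earlier results of these data known.

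Tankyrases attach poly(ADP-ribose) to the scaffold protein Axin and so mark it for degradation. Axin holds together the complex that targets β-catenin for destruction, and tankyrase inhibitors such as IWR1 stabilise Axin and lower β-catenin. In the mouse the 2-cell stage is when the embryo's own genome is activated: a short-lived set of early 2-cell genes, Zscan4 among them, is followed by broad activation of genes for ribosome production and other basic functions, while chromatin at gene starts becomes accessible.

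Of the minimum-width IWR1-high regions, 258 held an annotated gene start. The promoters of the 5 genes with the smallest adjusted p in RNA-seq, among genes whose promoter lay wholly inside such a region, are printed. The direction of change was not part of this choice, and each of these genes rose in IWR1. The sequences are from RefSeq on GRCm38.p6, run 5′ to 3′ along the gene, and hold 250 bases before the start and 50 from it on, so the start is base 251. Capitals mark the GC box GGGCGG, the CCAAT box CCAAT, the TATA box TATAAA, the TCF/LEF letters CTTTGAT, the E-box CACGTG and the ETS letters CCGGAAG, each on either strand.
Zscan4c, chr7:11005495-11005794, plus strand: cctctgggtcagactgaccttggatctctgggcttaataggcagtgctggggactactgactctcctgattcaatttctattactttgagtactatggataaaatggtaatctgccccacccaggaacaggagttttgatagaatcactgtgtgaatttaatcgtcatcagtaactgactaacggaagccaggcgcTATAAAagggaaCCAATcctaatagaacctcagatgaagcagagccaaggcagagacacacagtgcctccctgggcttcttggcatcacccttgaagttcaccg
Ang, chr14:51090827-51091126, plus strand: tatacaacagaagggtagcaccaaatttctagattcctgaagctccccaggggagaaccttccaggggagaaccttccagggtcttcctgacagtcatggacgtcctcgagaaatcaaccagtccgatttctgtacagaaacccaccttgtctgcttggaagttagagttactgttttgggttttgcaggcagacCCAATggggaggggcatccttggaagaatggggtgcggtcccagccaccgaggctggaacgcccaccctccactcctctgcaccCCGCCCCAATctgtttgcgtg
Sebox, chr11:78503263-78503562, plus strand: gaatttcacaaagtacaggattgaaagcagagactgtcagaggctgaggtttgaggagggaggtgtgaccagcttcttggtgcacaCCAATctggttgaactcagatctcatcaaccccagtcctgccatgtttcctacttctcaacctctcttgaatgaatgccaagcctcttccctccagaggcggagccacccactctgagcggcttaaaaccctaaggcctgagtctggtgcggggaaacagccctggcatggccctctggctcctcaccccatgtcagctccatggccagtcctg
Dynlt3, chrX:9662934-9663233, minus strand: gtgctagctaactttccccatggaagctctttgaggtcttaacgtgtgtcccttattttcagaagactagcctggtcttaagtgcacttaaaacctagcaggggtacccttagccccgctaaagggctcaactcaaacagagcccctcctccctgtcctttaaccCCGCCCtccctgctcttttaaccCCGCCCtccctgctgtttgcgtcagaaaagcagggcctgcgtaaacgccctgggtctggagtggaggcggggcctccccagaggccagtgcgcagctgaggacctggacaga
Gcnt4, chr13:96924463-96924762, plus strand: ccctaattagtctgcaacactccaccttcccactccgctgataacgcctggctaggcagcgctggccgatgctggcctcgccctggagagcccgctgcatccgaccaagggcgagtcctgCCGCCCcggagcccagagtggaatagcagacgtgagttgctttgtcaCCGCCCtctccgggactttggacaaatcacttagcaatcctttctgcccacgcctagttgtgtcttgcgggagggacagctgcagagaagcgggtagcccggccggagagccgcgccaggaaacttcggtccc

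The promoters printed differed in composition. Zscan4c held a TATA box at base 197 and a CCAAT box at base 209, with a GC content of 47.0% and 4 CpG dinucleotides. Ang held CCAAT at bases 196 and 285, and its GC box at base 280 shared its last base with the second CCAAT. Sebox held CCAAT at base 87. Dynlt3 held GC boxes at bases 166 and 189, and Gcnt4 at bases 121 and 168, where the GC content was 62.7% with 21 CpG. None of the 5 windows held the TCF/LEF letters, the E-box or the ETS letters, which says only that these letters were not in these windows.

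Many of the minimum-width IWR1-high regions lay at gene starts, and few IWR1-low regions of the same width did. A start lay inside 258 of 958 regions off chromosome 18, or 26.9% (95% Wilson interval 24.22 to 29.83, counting error only), and inside 7 of 868 minimum-width IWR1-low regions, or 0.806% (0.39 to 1.66). Wide IWR1-high regions held a start in 546 of 1303 cases, 41.9%, which is not a comparison at equal width. The 40 regions on chromosome 18 have no entry in the table of starts and are left out of these counts. Another 444 regions (46.3%) overlapped a gene but held no start of that table, which does not list every gene. Of the others, 149 (15.6%) overlapped no gene but lay within 10 kb of one, and 107 (11.2%) lay farther away. The median distance to the nearest start was 6993 bases, against 2290 in wide IWR1-high and 19888 in minimum-width IWR1-low regions.

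**Figure D1:**
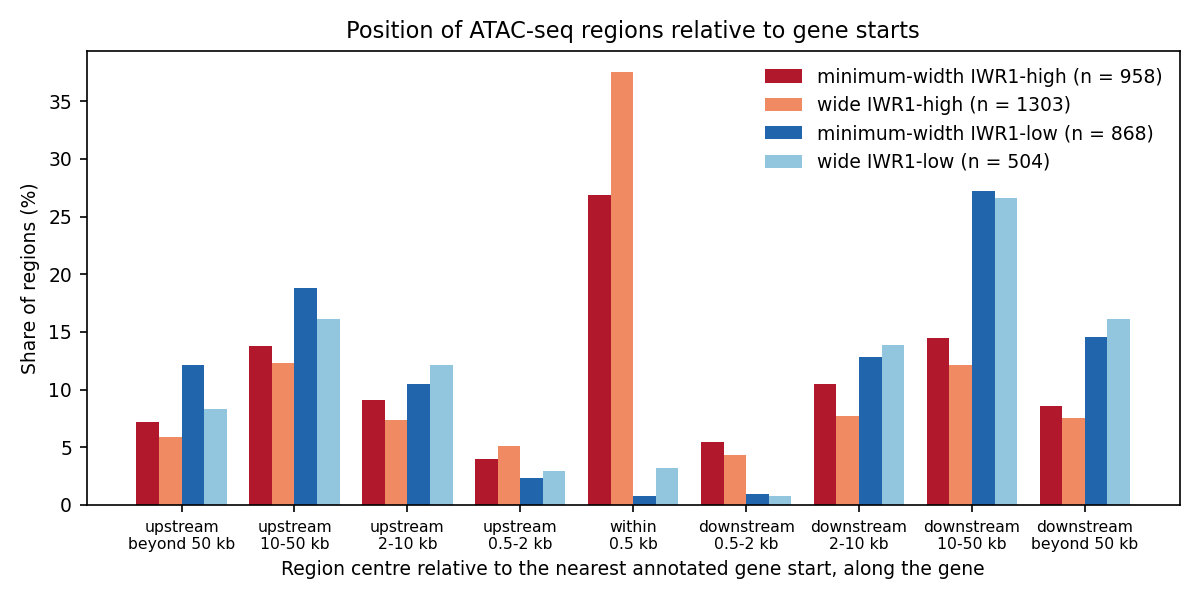
Share of regions (%, vertical axis) by the distance of the region's centre from the nearest annotated gene start, upstream or downstream along the gene, for the 4 groups of regions off chromosome 18. The bin within 0.5 kb holds 26.9% of minimum-width IWR1-high, 37.5% of wide IWR1-high, 0.806% of minimum-width IWR1-low and 3.17% of wide IWR1-low regions.

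Where a region held a start, its centre lay upstream of the nearest start in 167 cases, downstream in 87 and on it in 4, with a median offset of -41.5 bases, where minus is upstream. These 258 regions held the starts of 287 genes, of which 248 are protein-coding and 39 are long non-coding. The starts of 2 genes lay in 29 regions, on opposite strands in 27 of these, and in 21 the pair pointed away from each other, the layout of a shared promoter.

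The 281 promoters wholly inside such a region, of 259 genes, had a median GC content of 61.0%, 19 CpG and a CpG ratio (observed over expected) of 0.704. The 742 promoters wholly inside a wide IWR1-high region had 62.3%, 22 and 0.755. The promoters of all genes tested in RNA-seq had 59.5%, 18 and 0.713, and for all 32851 promoters these were 52.7%, 7 and 0.384. The table may list several promoters of a gene, so promoters are not independent.

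The letters of 11 motifs were searched on both strands of these 300-base windows, any match counting. The GC box was in 65.8% of promoters inside minimum-width regions, 56.9% of promoters of tested genes and 35.7% of all promoters. For the CCAAT box the shares were 44.8%, 38.4% and 37.4%, and for the E-box CACGTG, which MYC and related factors bind, 13.2%, 9.54% and 7.15%. Promoters inside wide IWR1-high regions had the GC box in 68.7%, the CCAAT box in 45.7% and the E-box in 11.3%. The GC and CCAAT box shares are thus not particular to the minimum width. The TCF/LEF letters, which β-catenin's partner factors bind, were in 3 of 281 promoters (1.07%), against 2.74% and 3.73%, and 2.02% inside wide IWR1-high regions. Against promoters of tested genes, the share was 10.7% and 15.4% for the ETS letters, 3.56% and 7.19% for the GATA letters AGATAA, and 4.63% and 6.17% for the homeobox letters GGATTA. It was 4.63% and 5.57% for the AP-1 letters TGANTCA, 8.19% and 8.58% for the TATA box, 11% and 13.4% for the nuclear receptor letters AGGTCA, and 13.9% and 12.4% for the TEAD letters GGAATG. Over all promoters these shares were 8.86%, 11.2%, 7.06%, 7.81%, 13.6%, 16.3% and 14.7%, in the same order. Inside wide IWR1-high regions they were 12.7%, 5.12%, 4.72%, 4.18%, 4.04%, 8.89% and 9.84%. Some of these motifs can overlap in a window, and a match is not a bound site.

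The regions were spread over 20 chromosomes. Per 1000 annotated genes there were 34.3 on chromosome 11 (106 regions), 34.2 on chromosome 19 and 30.2 on chromosome 18, and 6.37 on the X chromosome (16 regions), with none on Y. Wide IWR1-high regions also had their highest value on chromosome 11, at 46.6, and their lowest apart from Y on X, at 9.55. They had 40.0 on chromosome 19 and 33.2 on chromosome 18, so these values are not particular to the minimum width. Minimum-width IWR1-low regions had another order, with 30.6 on chromosome 1, where minimum-width IWR1-high regions had 16.5, and 11 on chromosome 11.

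**Figure D2:**
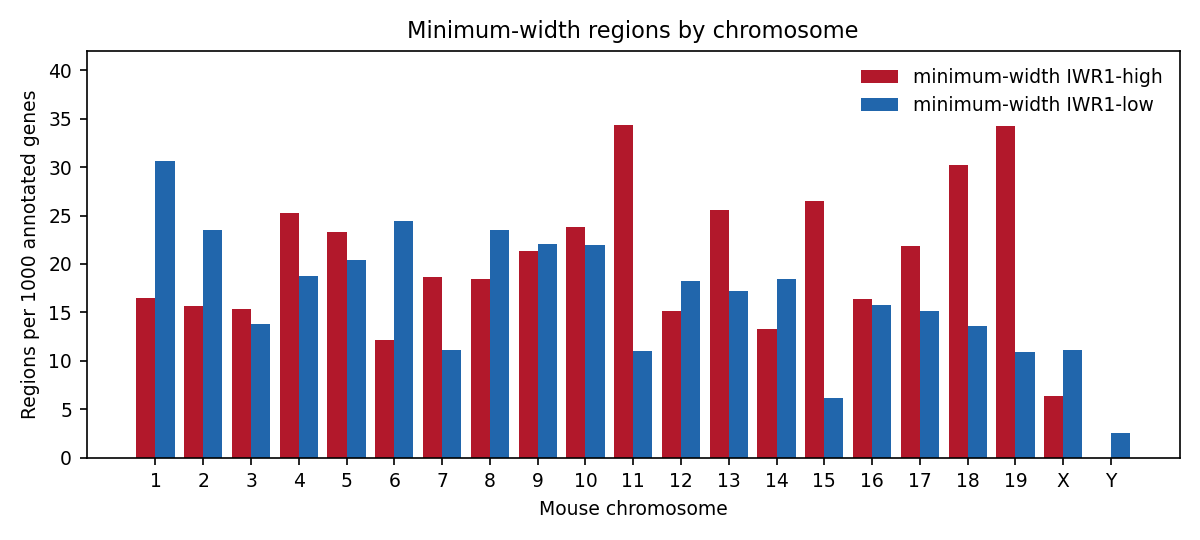
Minimum-width regions per 1000 annotated genes (vertical axis) on each mouse chromosome, for the IWR1-high (red) and IWR1-low (blue) lists. IWR1-high values run from 6.37 on X to 34.3 on chromosome 11, with 0 on Y.

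Most of these regions stood alone. Joined where they lay under 100 kb apart, 757 remained single and 241 formed 110 stretches, of 2 regions in 92 cases, 3 in 15 and 4 in 3. The median distance to the nearest other minimum-width IWR1-high region was 391633.5 bases, to a wide IWR1-high region 303703 and to a minimum-width IWR1-low region 902493.5, from lists of different length. A wide IWR1-high region lay within 10 kb of 76 (7.62%) and a minimum-width IWR1-low region within 10 kb of 7 (0.701%).

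The 3 stretches of 4 regions are described with the 2 shortest of the 15 stretches of 3. Coordinates are on mm10 as deposited. At chr13:120268590-120280248, 4 regions lay within 11658 bases. Of these, 1 overlapped the long non-coding Gm39470, and the pseudogene Gm52032 lay between others, 335 bases from the nearest. Within 100 kb were 4 wide IWR1-high regions and 1 minimum-width IWR1-low region. At chr13:119901585-119911717, 3 regions lay between Tcstv1, a gene of a family expressed at the 2-cell stage, and Gm21761, with 5 wide IWR1-high regions and 1 wide IWR1-low region within 100 kb. At chr10:81395403-81432052, 4 regions lay in and beside Nfic, a nuclear factor I transcription factor. At chr3:96409495-96460800, 4 regions lay in a cluster of transfer RNA genes that also holds Terc, the RNA template of telomerase. At chr18:74946103-74979754, 3 regions lay by Lipg, which encodes endothelial lipase.

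Gm52032, Gm39470 and Nfic had 4 regions within 10 kb each, and 12 genes tied at 3. Of these 12, AF067061 and Gm21761 were taken in alphabetical order, and the other 10 are overlapping gene models on chromosome 18, protocadherin gamma genes among them, of which only Pcdhga1 was tested (edgeR adjusted p = 0.933). AF067061, with 3 regions within 10 kb and the nearest 4073 bases away, had 51.6, 69.5, 83.8 and 70.5 FPKM in DMSO and 299.9, 349, 537 and 283 FPKM in IWR1. All IWR1 libraries were above all DMSO libraries, and it rose by a log2 fold change of 2.21 (SE 0.26, edgeR adjusted p = 3.8e-05). Nfic, with 4 regions, was at 0.0546 to 0.138 FPKM in DMSO and 0.248 to 0.608 in IWR1, a log2 fold change of 1.94 (SE 0.72, edgeR adjusted p = 0.0404). That call was lost without any of DMSO libraries 1, 2 and 3 or IWR1 libraries 6, 7 and 8, where the adjusted p ran from 0.0616 to 0.124. Gm52032, Gm39470 and Gm21761 were not tested.

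RNA-seq gave the level of the neighbouring genes in 8 libraries. Total gene counts ran from 16606155 to 49672143 in DMSO libraries 1 to 4 and from 17963977 to 32931800 in IWR1 libraries 5 to 8, as the count table numbers them. FPKM are counts scaled to gene length and library total, while log2 fold changes also carry TMM scaling (trimmed mean of M-values), so the ratio of FPKM means differs somewhat from the fold change. Summed FPKM of 8 markers of 2-cell embryos was 633 to 778 in DMSO and 1550 to 2930 in IWR1, and of 9 oocyte markers 344 to 700 and 728 to 1250. Markers of other cells were low in both groups and higher in IWR1: 12 cumulus and granulosa cell markers summed to 2.64 to 5.11 and 6.38 to 12.5, 7 sperm markers to 0.677 to 1.91 and 12.2 to 26.3, 10 blood and immune markers to 3.35 to 5.86 and 25.5 to 40.1, and 8 stromal markers to 0.215 to 2.00 and 5.19 to 8.65. Amh, Inhba, Smcp, all 4 globins listed, Ptprc, Tyrobp and Lum had no count. Hba-a1, Col1a1 and Thy1 lay beside minimum-width IWR1-high regions, and the part of other cells in any result was not tested. More or fewer cells of a type and more or less RNA per cell cannot be told apart in these pooled embryos.

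Genes with a start in or near a minimum-width IWR1-high region were called higher in IWR1 more often than lower. Of 276 tested genes with a start in or within 1 kb of such a region, 92 rose (33.3%) and 25 fell (9.06%), while 23.3% of all 14954 tested genes rose and 25.4% fell. Called in either direction were thus 48.7% of all genes. The median log2 fold change was 0.82 for these genes and 0.17 for all genes, a difference of 0.65. All IWR1 libraries were above all DMSO libraries for 112 of them and below for 21, against 28.3% and 22.0% of all genes. With the start inside the region, 82 of 227 rose (36.1%) and 17 fell (7.49%). Another 60 of the 287 genes with a start inside were not tested, so the counts do not cover all of them, and 80 of the 276 overlap another counted gene model, with which reads may be shared.

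Genes that a region overlapped with no listed start within 1 kb, and genes it lay near without overlap, were counted apart. Only 11904 of the 14954 tested genes have a listed start, and those on chromosome 18 have none. Overlapped genes without a listed start are counted here even if the region covers their start. The overlapped genes are therefore not shown to be overlapped away from their starts. Of 295 tested genes that a region overlapped with no listed start within 1 kb, 97 rose (32.9%) and 30 fell (10.2%), with a median of 0.76. Of 337 tested genes within 10 kb that were not overlapped, 80 rose (23.7%) and 82 fell (24.3%), both near the share of all genes, with a median of 0.30. Altogether 908 genes within 10 kb were tested, of which 269 rose (29.6%) and 137 fell (15.1%), against 23.3% and 25.4% of all genes. Among the regions, 273 of 998 had a gene within 10 kb that rose, 128 one that fell, and 305 no tested gene.

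The other groups of regions give the scale. Of 590 tested genes with a start within 1 kb of a wide IWR1-high region, 181 rose (30.7%) and 87 fell (14.7%), with a median log2 fold change of 0.54. Minimum-width IWR1-low regions had 641 tested genes within 10 kb, of which 111 rose (17.3%) and 216 fell (33.7%), with a median of -0.26. Only 11 tested genes had a start within 1 kb of them, and 8 of these fell. A gene near regions of 2 groups counts in both, and no difference between the groups was tested. Without the genes beside another group, 90 genes with a start within 1 kb of a minimum-width IWR1-high region rose and 24 fell. Among genes within 10 kb, leaving out those beside another group took rises from 269 to 212 and falls from 137 to 119.

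**Figure D3:**
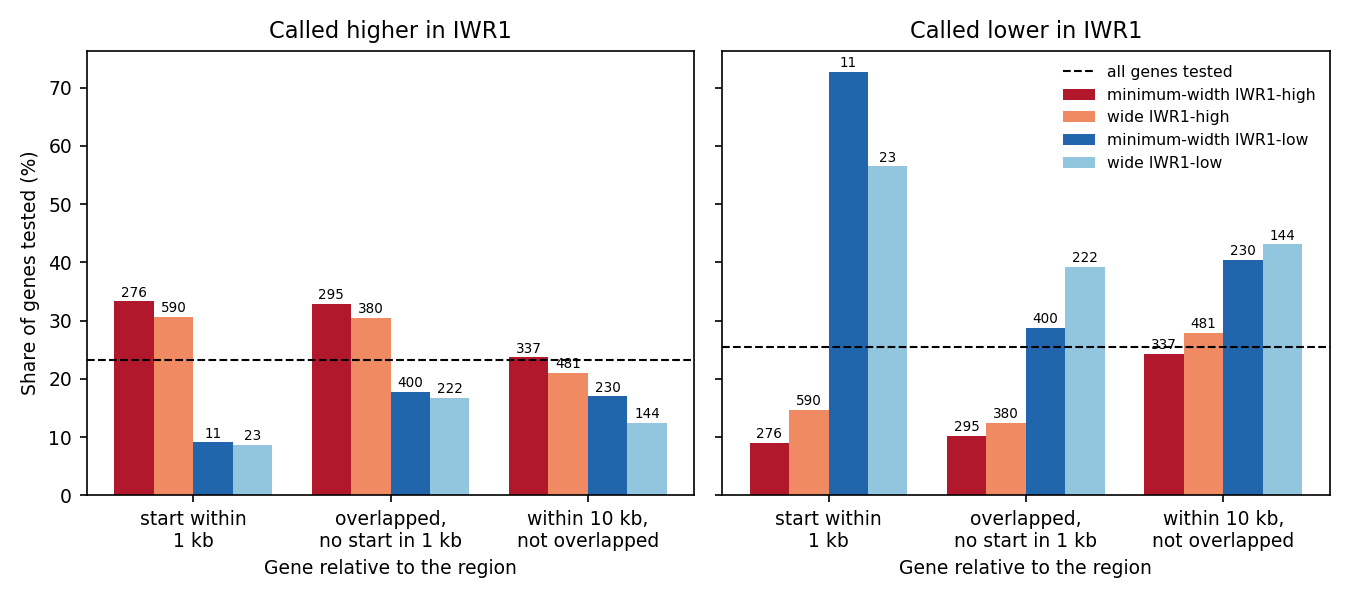
Share of tested genes (%, vertical axis) that edgeR called higher (left) or lower (right) in IWR1, by the position of the gene relative to the region, for the 4 groups of regions. The number of tested genes stands above each bar and the dashed line gives all genes tested (23.3% higher, 25.4% lower).

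The level of a gene went with its change, so the genes were also set out by level. In the lowest quartile of mean FPKM the median log2 fold change over the whole table was 0.70 and in the highest -0.48. Genes with a start within 1 kb of a minimum-width IWR1-high region had medians of 1.10 in the lowest quartile (78 genes), 0.81 in the second (76), 0.62 in the third (75) and 0.57 in the highest (47), above those of all genes in each. In the highest quartile 48.9% of them rose and 23.4% fell, against 27.4% and 48.8% of all genes. Genes with a start within 1 kb of a wide IWR1-high region had medians of 0.9, 0.55, 0.35 and 0.41, from lowest to highest quartile. These were also above those of all genes in each, and in the highest quartile 42.9% rose and 26.3% fell.

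**Figure D4:**
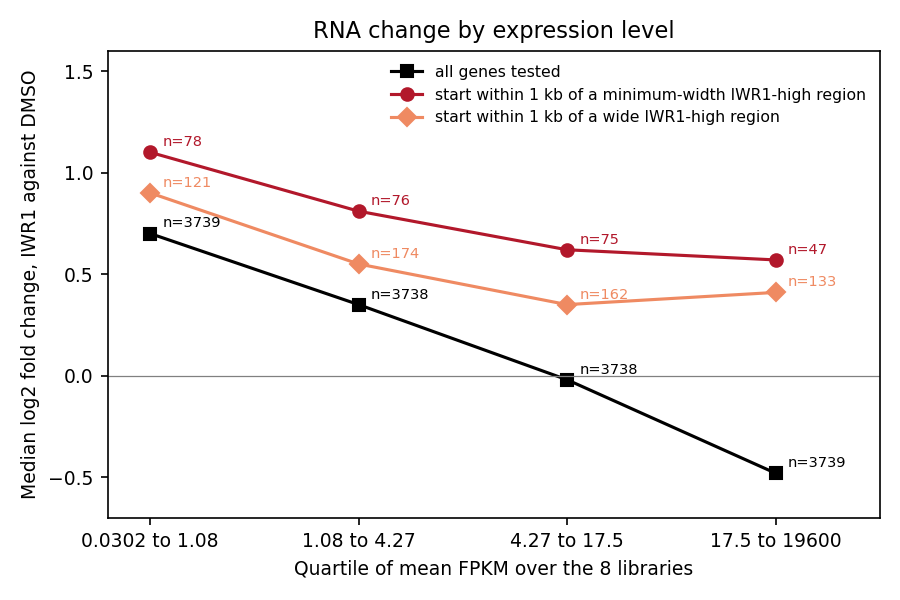
Median log2 fold change (IWR1 against DMSO, vertical axis) by quartile of mean FPKM over the 8 libraries, for all tested genes and for genes with a start within 1 kb of a minimum-width or a wide IWR1-high region, with gene numbers at the points. All genes run from 0.70 to -0.48, and genes at minimum-width regions from 1.10 to 0.57.

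Among genes with a start inside a region, detection in IWR1 alone was near the share of all genes. Of 250 genes of the count table with a start inside a region, 1 had no count in any DMSO library and a count in every IWR1 library (0.4%, against 0.665% of all genes), and 1 had no count in any library (0.4%, against 15.6%). The reverse, a count in every DMSO library and none in IWR1, was found for 0 of the 250, against 0.114% of all genes. The first was Klf15, a Krüppel-like transcription factor named here because the count is small, with 20, 53, 25 and 3 counts in the IWR1 libraries. It did not pass the filter on low counts.

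The 8 rises and 8 falls with the smallest adjusted p were named among genes whose IWR1 libraries lay all above or all below the DMSO libraries, so that separation was fixed by their choice. Over all tested genes it held upward for 28.3% and downward for 22.0%. Zscan4c, whose start lay inside a region, encodes a SCAN-domain zinc finger protein tied to telomere maintenance in mouse embryonic stem cells. Its FPKM was 5.95, 8.35, 7.18 and 8.23 in DMSO and 74.5, 89.2, 109 and 82.7 in IWR1. The lowest IWR1 library was well above the highest DMSO library, and the log2 fold change was 3.39 (SE 0.21, edgeR adjusted p = 3.69e-06). Zscan4d, whose start lay in another region, had 52.2, 64.9, 112 and 62.2 FPKM in DMSO and 277, 220, 500 and 305 FPKM in IWR1. The groups did not overlap (log2 fold change 1.95, SE 0.32, edgeR adjusted p = 0.000364). Zscan4 genes are near-identical copies, so how reads divide among them is uncertain.

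Sebox encodes a homeobox protein of oocytes and early embryos. It was at 95.6, 138, 87.4 and 98.4 FPKM in DMSO and 637, 647, 402 and 517 FPKM in IWR1, with no overlap. Its log2 fold change was 2.23 (SE 0.21, edgeR adjusted p = 1.38e-05). A wide IWR1-high region also lay within 10 kb of Sebox. The same held for Dkkl1, AF067061, Tead2, Polr1e, Arid1a and Kdm6b among the tested genes named here. Changes of these genes therefore cannot be assigned to the minimum-width regions alone. Dynlt3, a light chain of the motor protein dynein, was at 56.6, 56.4, 64.0 and 39.1 FPKM in DMSO and 232, 256, 202 and 243 FPKM in IWR1. These groups did not overlap either (log2 fold change 1.93, SE 0.20, edgeR adjusted p = 2.1e-05). Gcnt4, a glycosyltransferase that branches O-linked sugars, had 0.603, 1.00, 0.492 and 0.549 FPKM in DMSO and 11, 10, 5.77 and 4.45 FPKM in IWR1. All IWR1 libraries were higher, with a log2 fold change of 3.42 (SE 0.36, edgeR adjusted p = 2.36e-05).

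Ang, the secreted ribonuclease angiogenin, was at 0.567, 0.620, 1.09 and 0.537 FPKM in DMSO and 14.1, 14.9, 15.1 and 16.6 FPKM in IWR1. The groups lay far apart (log2 fold change 4.19, SE 0.38, edgeR adjusted p = 1.19e-05). Rnase4, a related ribonuclease that shares the Ang locus, also starts inside the region and had 0, 6, 0 and 58 counts in DMSO and 1286, 1516, 287 and 1269 counts in IWR1. It rose as well (log2 fold change 6.53, SE 0.97, edgeR adjusted p = 0.000175), but the gene models overlap, so their reads cannot be fully separated.

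**Figure D5:**
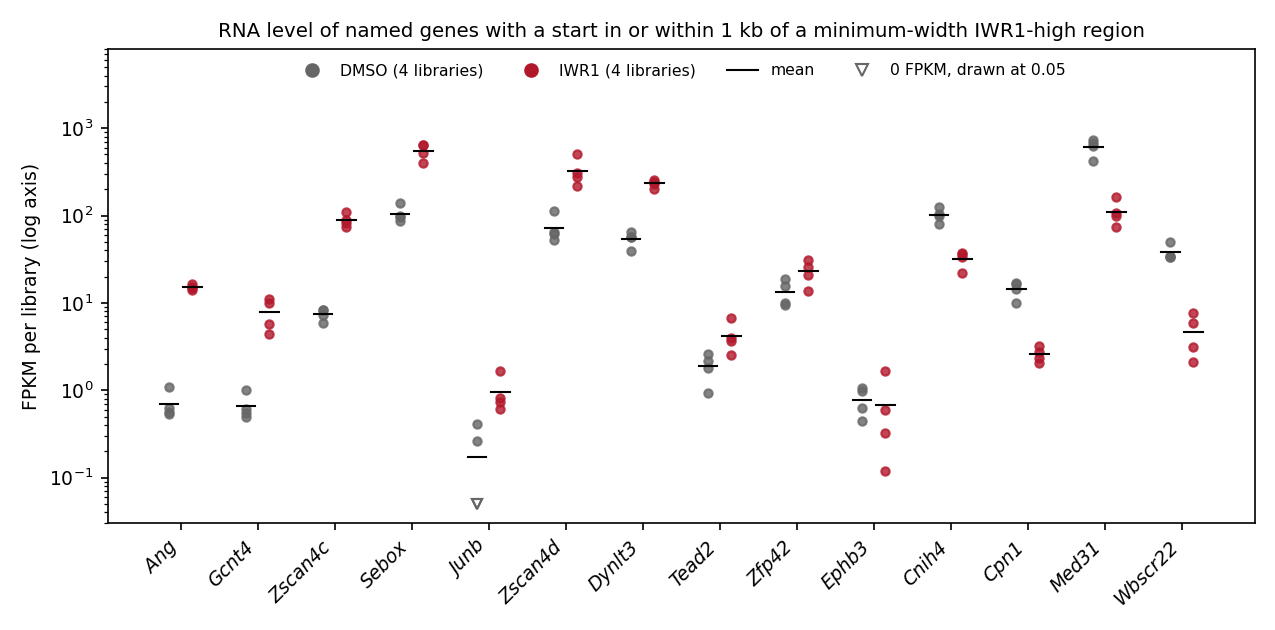
FPKM of each library (log axis) for the 14 named and tested genes with a start in or within 1 kb of a minimum-width IWR1-high region, ordered by log2 fold change, with black lines at group means. Zscan4c lies at 5.95 to 8.35 FPKM in DMSO and 74.5 to 109 in IWR1, and Med31 at 424 to 732 and 74.7 to 164.

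Among the named genes, 4 fell with a region at or near their start. Med31, a subunit of the Mediator complex that links transcription factors to RNA polymerase II, was at 631, 424, 674 and 732 FPKM in DMSO and 74.7, 108, 164 and 97.5 FPKM in IWR1. The groups did not overlap, and it fell by 2.68 on the log2 scale (SE 0.28, edgeR adjusted p = 2.07e-05). The start of the overlapping 4930563E22Rik lay in the same region, with a log2 fold change of -1.07 (edgeR adjusted p = 0.0842).

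Cpn1, the catalytic subunit of carboxypeptidase N, had 14.3, 16.3, 10.1 and 17.0 FPKM in DMSO and 2.36, 2.73, 2.03 and 3.20 FPKM in IWR1. It was lower in every IWR1 library (log2 fold change -2.65, SE 0.27, edgeR adjusted p = 1.92e-05). Cnih4, a cornichon protein of cargo export from the endoplasmic reticulum, had 103, 80.9, 99.2 and 126 FPKM in DMSO and 21.9, 33.1, 36.1 and 36.8 FPKM in IWR1. It too was lower throughout (log2 fold change -1.87, SE 0.22, edgeR adjusted p = 3.81e-05). Wbscr22, a methyltransferase that acts on 18S ribosomal RNA and whose start lay 582 bases from a region, had 34.0, 33.4, 33.9 and 50.1 FPKM in DMSO and 2.09, 5.83, 7.73 and 3.15 FPKM in IWR1. It fell by 3.21 on the log2 scale (SE 0.37, edgeR adjusted p = 3.94e-05), and its model overlaps Dnajc30.

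At regions that held the starts of 2 tested genes, the calls of both genes were set side by side. Of 17 such regions, 2 had both genes called higher, 1 had a gene called higher and the other lower, 5 had a gene called higher and the other not called, 2 had a gene called lower and the other not called, and 7 had neither called. Of all 227 tested genes with a start inside a region, 36.1% rose and 7.49% fell, and of all tested genes 23.3% and 25.4%. Whether the genes of a pair went together beyond these shares was not tested. The pairs in the smallest counts are named after their values were seen. Both higher were Ang with Rnase4, and Psma7, a proteasome subunit, with Ss18l1, a chromatin factor of neurons, at log2 fold changes of 0.99 and 1.32. The opposed pair was Rbm18, an RNA-binding protein, at 0.77 (SE 0.16, edgeR adjusted p = 0.00207) and Mrrf, the mitochondrial ribosome recycling factor, at -1.02 (SE 0.18, edgeR adjusted p = 0.000492). The lower of the pairs with 1 call were Med31 and Tango2, whose log2 fold changes were -2.68 and -1.90.

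Other named genes rose with a region in the gene or near it with no annotated start of their own in it. For Cd7 the table gives no start, and the region spans an end of the gene, so its place relative to the start is unknown. Myl4, an embryonic and atrial myosin light chain with a region in the gene, was at 9.62, 5.79, 7.72 and 5.08 FPKM in DMSO and 72.1, 50.7, 45.8 and 48.4 FPKM in IWR1. It rose by a log2 fold change of 2.77 (SE 0.29, edgeR adjusted p = 2.15e-05), and its model overlaps Cdc27. Cd7, a surface protein of T cells, had 30.6, 24.1, 13.4 and 16.0 FPKM in DMSO and 151, 105, 133 and 115 FPKM in IWR1, and rose by 2.44 (SE 0.25, edgeR adjusted p = 1.99e-05). The blood and immune markers, summed at 3.35 to 5.86 FPKM in DMSO and 25.5 to 40.1 in IWR1, moved the same way, with 2 of 2 tested called higher and 6 of 10 without a count, and their part in this rise was not tested. Dkkl1, a secreted protein related to the Dickkopf Wnt antagonists, lay 3202 bases from a region and rose by 2.64 (SE 0.31, edgeR adjusted p = 3.78e-05), from 13.9 to 35.6 FPKM in DMSO to 135 to 162 FPKM in IWR1. Ubl3, a membrane-anchored ubiquitin-like protein 3864 bases from a region, rose by 1.74 (SE 0.17, edgeR adjusted p = 1.74e-05), from 12.9 to 19.4 FPKM to 58.1 to 67.3.

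The remaining named falls lay 3301 to 9583 bases from a region, where 24.3% of the tested genes fell. Rbm25, a splicing regulator 4500 bases from a region, was at 81.5, 73.3, 75.2 and 69.0 FPKM in DMSO and 19, 23.8, 21.4 and 20.8 FPKM in IWR1, and fell by 2.00 (log2 scale, SE 0.16, edgeR adjusted p = 8.38e-06). Rpl19, a protein of the large ribosomal subunit, ranged from 514 to 677 FPKM and from 94.9 to 195, a log2 fold change of -2.37. Snupn, the import adaptor of spliceosomal ribonucleoproteins, ranged from 353 to 427 and from 50.2 to 127 FPKM (-2.18), and Mrpl17, a mitochondrial ribosomal protein, from 11.3 to 15.7 and from 2.96 to 4.54 FPKM (-1.98).

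Early 2-cell genes lay beside some of the regions. Of all 14954 tested genes, 908 lay within 10 kb of a minimum-width IWR1-high region, which is the scale for this list and the lists below. No list was tested for nearness to the regions. Within 10 kb of a minimum-width IWR1-high region lay 5 of 37 matched early 2-cell genes, of which 4 rose and none fell, while 14 of the 32 tested genes of the list rose and 6 fell, at a list median of 0.85. They were Zscan4c, Zscan4d, Tcstv1, the oocyte homeobox gene Obox5 and the arginase Arg2. Tcstv1, 6800 bases from a region, was at 113, 126, 138 and 111 FPKM in DMSO and 520, 399, 706 and 431 FPKM in IWR1, without overlap (log2 fold change 1.89, SE 0.22, edgeR adjusted p = 3.94e-05). Obox5 rose as well (1.65, SE 0.33, edgeR adjusted p = 0.00133), and Arg2 had a log2 fold change of 0.22 (SE 0.24, edgeR adjusted p = 0.481). No gene of 45 major genome activation genes or of 57 maternal oocyte genes lay within 10 kb of a region. At the share of all tested genes, only a few of each list would lie there. Over all tested members 36 of the former fell and 34 of the latter rose.

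Of 60 ribosome biogenesis genes, 59 of which fell, 2 lay near a region, and both fell. Polr1e, a subunit of RNA polymerase I, was at 60.6, 70.6, 58.4 and 68.2 FPKM in DMSO and 7.56, 15.9, 21.7 and 20.3 FPKM in IWR1, lower throughout (log2 fold change -2.17, SE 0.27, edgeR adjusted p = 5.52e-05). Utp14a, a factor of small ribosomal subunit assembly, had a log2 fold change of -1.10 (SE 0.24, edgeR adjusted p = 0.00254). Regions lay 4434 and 2781 bases from these genes.

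The tankyrase and β-catenin machinery had 3 of 29 genes near a region. Fbxw11, an F-box protein that marks β-catenin for degradation, was at 9.54, 10.3, 10.0 and 12.5 FPKM in DMSO and 3.75, 4.94, 4.08 and 5.74 FPKM in IWR1. It fell without overlap of the groups (log2 fold change -1.38, SE 0.22, edgeR adjusted p = 0.000246). Its nearest minimum-width IWR1-high region was 7623 bases away, and an IWR1-low region also lay within 10 kb, as it did for the other two genes. Csnk1a1, the kinase that primes β-catenin, was at 95.6 to 146 FPKM in DMSO and 150 to 210 in IWR1 without being called (0.33, edgeR adjusted p = 0.153), and Tcf7l1, a TCF repressor, was at 0.343 and 0.547 mean FPKM (0.57, edgeR adjusted p = 0.599). Of 24 Wnt target genes, 1 lay near a region: Ephb3, an ephrin receptor with its start inside, was at 0.449 to 1.07 and 0.118 to 1.65 FPKM (-0.39, edgeR adjusted p = 0.673).

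Factors of pluripotency and the first lineages were near 3 regions with no call. Zfp42, a zinc finger protein of pluripotent cells also called Rex1, and Tead2, a TEA-domain factor, had their starts inside regions. Zfp42 was at 10.1, 18.6, 9.40 and 15.7 FPKM in DMSO and 13.8, 31.0, 21.1 and 25.6 FPKM in IWR1, and these groups overlapped (log2 fold change 0.59, SE 0.28, edgeR adjusted p = 0.1). Tead2 had a log2 fold change of 0.98 (SE 0.42, edgeR adjusted p = 0.0732), and the blood and trophoblast factor Gata2 of 0.21 (SE 0.62, edgeR adjusted p = 0.796).

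Among 52 chromatin regulators, 4 lay near a region and none was called. Arid1a, a subunit of the SWI/SNF remodeller, had a log2 fold change of -0.43, Kdm6b, a histone H3 lysine 27 demethylase, of 0.53, and Kat5, a histone acetyltransferase, of 0.66, with edgeR adjusted p of 0.0662, 0.0995 and 0.273. The DNA methyltransferase Dnmt1 was at -0.04 (edgeR adjusted p = 0.893). Over the whole list 25 of 51 tested genes fell and 3 rose.

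In the remaining lists 4 genes lay near a region. Sesn1, a stress-induced sestrin with a region in the gene, was at 5.81 to 14.1 FPKM in DMSO and 2.17 to 7.28 in IWR1, overlapping groups (log2 fold change -1.21, SE 0.36, edgeR adjusted p = 0.0142), and lost its call without DMSO library 2 (adjusted p = 0.0552) or IWR1 library 8 (adjusted p = 0.0507). S100a10, a partner of annexin A2, was at 0, 1.62, 0.591 and 0 FPKM in DMSO and 28.9, 23.7, 18 and 11.8 FPKM in IWR1, and rose without overlap (log2 fold change 5.13, SE 1.00, edgeR adjusted p = 0.00115). Junb, an AP-1 factor with its start inside a region, was at 0 to 0.416 and 0.615 to 1.65 FPKM (2.14, SE 1.22, edgeR adjusted p = 0.167). The immediate early gene Ier2, with 2 regions within 10 kb, was at 9.45 to 39.3 and 12.7 to 33.7 FPKM (0.26, edgeR adjusted p = 0.603). The nearer region spans an end of Ier2, and the other lay 583 bases away. No start of Ier2 is listed, so the place of these regions relative to it is unknown.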

How the data were processed

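Per the submitters' processing notes, the build was mm10 and the tools included MACS2, DESeq2, featureCounts 1.5.0-p1, STAR 2.5.1b and Bowtie2 2.2.6 besides Trim Galore, cutadapt 1.11 and bcl2fastq, with no role given. The sources used here do not state how ATAC-seq regions were called, widened or compared, or whether reads were shifted. The authors' deposited lists hold coordinates in bases without value or stated base of counting, printed as deposited. Overlap was computed on them as they stand.

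The authors deposited raw counts per gene and library. FPKM of all libraries were computed from these and the deposited gene lengths, and differed from the FPKM the authors deposited for DMSO by at most 2.62e-10. IWR1 columns are numbered 5 to 8 and were assigned to the group only, and 12 columns with other values of single libraries were left out. Of 24918 entries, 0 named no gene and 24815 matched the RefSeq table of GRCm38.p6 by gene ID.

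Genes passing filterByExpr (14994, of which 14954 had 1 locus and a position) were tested two-sided with edgeR 4.0.16 in R 4.3.3 (quasi-likelihood, TMM, Benjamini-Hochberg, threshold 0.05), checked on simulated counts. P-values set the difference between IWR1 and DMSO against the spread between collections of embryos. The SE is the log2 fold change divided by the square root of F. Starts and sequences came from a RefSeq promoter table of 32851 promoters, with none on chromosome 18. Intervals are Wilson's at 95%.

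Regions, lists and markers were chosen with earlier results of these data known. Named genes were, within 10 kb of a region, the 8 rises and 8 falls with the smallest adjusted p among separated, named genes whose mean FPKM was 5 or more, up to 3 genes of each of 10 lists, the 5 with the most regions, and the 5 promoters printed; the 5 stretches with the most regions were also named. Alternatives were DESeq2 1.42.0, other scalings, filters and distances, and leaving out each library.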

Additional observations from a re-analysis of the deposited data

Results flagged for a closer look

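In 4 of 74 gene and group pairs looked at, the highest or lowest of 4 libraries stood apart from the others by Dixon's 95% criterion, which chance meets in about 1 group in 20. All were DMSO libraries. Ang was at 1.09 FPKM in DMSO library 3 and 0.537 to 0.620 FPKM in the others. Kat5 was at 0.55 FPKM in DMSO library 3 and 1.47 to 1.64 FPKM in the others. In DMSO library 4, Mrpl17 was at 15.7 FPKM, against 11.3 to 11.7 FPKM, and Wbscr22 at 50.1 FPKM, against 33.4 to 34.0 FPKM. No cause was tested.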

How the results depend on the processing

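No paired analysis was possible because the IWR1 columns, numbered 5 to 8, do not carry the replicate numbers of the labels. Scaling shifted all genes together: over all genes the median log2 fold change was 0.35 with library totals alone, 0.0 with median-centred libraries and 0.22 with DESeq2. The median of genes with a start within 1 kb of a minimum-width IWR1-high region was then 1.01, 0.65 and 0.87, which is 0.66, 0.65 and 0.65 above all genes, and of genes within 10 kb 0.77, 0.42 and 0.63. Called rises and falls at starts were 108 and 25 with DESeq2, 101 and 22 with library totals, and 81 and 30 with median-centred libraries. With genes of at least 5 FPKM only, the median of all genes turned to -0.01, 60 start genes rose and 16 fell, and 168 genes within 10 kb rose at a median of 0.5. With every gene that had a count, the medians were 0.92 at starts and 0.69 within 10 kb. Leaving out 1 library gave 79 to 96 rises and 22 to 26 falls at starts with medians of 0.83 to 0.94, and medians of 0.59 to 0.66 within 10 kb.

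Distance moved the counts by construction, since it changes which genes are counted. Starts within 5 kb gave 46 falls. In place of 10 kb, overlap alone gave 187 rises and 53 falls at a median of 0.81, and 1 kb gave 198 and 59 at 0.78. The nearest gene alone gave 201 rises and 71 falls at 0.74, and 50 kb gave 482 rises and 421 falls at 0.32. Overlap alone gave 133 falls at 0.58 for wide IWR1-high regions, 71 rises and 118 falls at -0.13 for minimum-width IWR1-low regions, and 97 falls for wide IWR1-low regions. Protein-coding genes alone put 62.5% of the regions in a gene, against 73.4%, and joining under 50 kb left 72 stretches of 2 or more.

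Of 472 values of the 37 tested named genes under alternatives, 452 kept their direction and call, 9 gained a call, 10 lost it (Nfic and Sesn1) and 1 turned, Gata2, at -0.17 without IWR1 library 5 and up to 0.38 without another library; the cause was not tested. The region lists give no depth, and in RNA-seq depth limits genes of few counts such as Nfic and Junb.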
